A study of Mus musculus with 6 samples.

Results

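Interferon-stimulated genes are the genes that cells switch on when they receive an interferon signal, and 34 of them were followed here in the brown adipose tissue (BAT) of wild-type (WT) and miR-22 knockout (KO) mice. The list was set by gene symbol, with no threshold on measured values, but with earlier results of these arrays known. Probes were assigned through the RefSeq accession printed beside each probe in the array files. Of the 34 genes, 32 had at least 1 probe (47 probes in all) and 30 could be tested, out of 14712 genes tested on the arrays. *Mx1* and *Mx2* had no matched probe, the single probe of *Oas3* was not well above background on any array, and *Gbp3* was not tested because 2 of its 3 WT spots were marked as outliers by the scanner software.

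The mice, 3 WT and 3 miR-22 KO, were male and 8 weeks old, and RNA of their BAT had been hybridized to single-colour Agilent mouse arrays, with 1 mouse per array. The KO was global and constitutive, so that miR-22 was missing from every cell type of the tissue and not from brown adipocytes alone. No treatment is named in the labels for either genotype. All 10 brown adipocyte markers listed, *Ucp1* among them, were above background on 6 of 6 arrays.

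Type I interferons bind a receptor of the subunits Ifnar1 and Ifnar2, whose kinases Jak1 and Tyk2 phosphorylate transcription factors, Stat2 among them. A complex that also holds Irf9 then enters the nucleus and binds a short response element before the start of its target genes. The products of the target genes sense foreign RNA, cut or trap it, block translation, modify proteins with the ubiquitin-like protein Isg15, or raise the level of signalling components such as Irf7. In adipose tissue these genes are transcribed in adipocytes as well as in resident leukocytes, and an array of whole tissue reads all of them together.

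The core of that response element is GAAANNGAAA, where N stands for any base. It was searched on both strands of the 250 bases before the start of each gene (RefSeq promoters, GRCm38.p6), and overlapping matches were counted separately. Promoters were given for 25 of the 34 genes. The core was present in that window for 10 of these 25 genes (40%), against 936 of 27025 genes in the whole table (3.46%). The matches of 4 genes are shown because the results below turn on them, with *Isg15* and *Ifit1* as genes with several matches and no difference past the threshold, *Rsad2* as a gene higher in KO mice and *Stat2* as a gene with a lower mean in KO mice on its brighter probe. Each line is 30 bases, 5′ to 3′ on the strand of the gene, with every base covered by a match in capitals.
Isg15, chr4:156200871-156200900, minus strand: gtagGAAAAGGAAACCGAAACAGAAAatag
Ifit1, chr19:34640785-34640814, plus strand: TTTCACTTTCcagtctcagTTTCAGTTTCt
Rsad2, chr12:26456553-26456582, minus strand: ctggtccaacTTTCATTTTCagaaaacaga
Stat2, chr10:128270266-128270295, plus strand: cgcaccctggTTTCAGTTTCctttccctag
The 3 overlapping matches of *Isg15* began between 78 and 66 bases before the start, the 2 matches of *Ifit1* at 104 and 85 bases, the match of *Rsad2* at 120 bases and that of *Stat2* at 222 bases. The other genes with a match were *Ifit3*, *Oas1a*, *Oas3*, *Bst2*, *Gbp2* and *Gbp3*. RefSeq gives several transcript starts for some genes, and the matches of *Ifit3* and *Oas1a*, counted from the start used in the promoter table, lie within or across the full span of the gene, while 8 genes have a match wholly before it. A match of letters is a description of the sequence and not evidence of binding.

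The miRNA that was deleted is given for reference. Its main arm has the seed, bases 2 to 8, in capitals.
mmu-miR-22-3p, chr11:75463772-75463793, plus strand: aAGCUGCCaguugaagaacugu
The mature miRNA was not measured on these arrays. The probe of its host transcript *Mir22hg* (chr11:75461539-75466690) read 1.20, 1.69 and 1.22 in WT and 2.02, 2.11 and 2.23 in KO mice on the scaled log2 scale explained in the next paragraph. The position of that probe relative to the deletion was not given in the sources used here, so these values do not check the genotype.

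All levels are the scanner's background-subtracted signal of a probe as log2, minus the log2 of the 75th percentile of the same array, so that 0 is the level of a probe at that percentile. A difference of 1 is a doubling. Mice are given in the order WT mouse 1, 2 and 3 and KO mouse 1, 2 and 3. Where a gene had several probes, the brightest testable one stood for it. Genotypes were compared with limma, fitted over all 14712 genes, two-sided, at an unadjusted p of 0.05, the threshold of the study, and at an adjusted p of 0.05 after Benjamini-Hochberg adjustment over all genes.

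The interferon-stimulated genes that differed were mostly higher in KO mice. The members were chosen with earlier results of these arrays known, so no test of the set was run. At the unadjusted threshold, 9 of 30 genes (30%) were higher in KO mice, against a background of 10.0% of all genes (1476 of 14712), and 1 of 30 (3.33%) was lower, against 8.81% (1296 genes). None of the 30 passed the adjusted threshold (lowest adjusted p = 0.0996 from limma), which 27 genes, or 0.184% of all genes, did. In 4 alternatives, and with each probe tested on its own, *Xaf1* did pass it, by another probe. The 9 genes were *Oasl2*, *Ifit3*, *Dtx3l*, *Cmpk2*, *Rsad2*, *Oasl1*, *Oas1a*, *Parp9* and *Ddx58*, with log2 differences from 0.79 down to 0.34 (1.73-fold to 1.27-fold), and the gene that was lower was *Trim25*. Genes higher in KO mice made up 53.2% of all genes called here, 40.3% with normexp background correction and 42.0% in the authors' processed values, where 8 and 11 members were higher and 1 and 2 lower. The mean was higher in KO mice for 22 members (73.3%) and lower for 8, whereas it was higher for 47.1% of all genes. The median difference over the 30 genes was 0.18, beside -0.03 over all genes tested.

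Of the 9 genes, 8 were in the promoter table, and 3 of these (37.5%), *Rsad2*, *Ifit3* and *Oas1a*, hold the response element core in the window searched. This share is close to the 40% of all listed genes in that table, beside 3.46% of all genes. The genes that were higher thus did not hold the core more often than the list as a whole.

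These counts were lower when the position of an array on the slide was taken into account, which leaves the comparison to 1 WT mouse. WT mice 1 and 2 lay in the first row of the slide, and WT mouse 3 lay with all KO mice in the second. With the slide row as a block, 3 of 26 genes were higher in KO mice (*Oasl2*, *Oasl1* and *Cmpk2*) and none was lower at an unadjusted p of 0.05 with limma, against 777 higher and 298 lower of 12352 genes, and none passed the adjusted threshold. Within the second row alone, WT mouse 3 against the 3 KO mice, 5 of 28 genes were higher, namely these 3 with *Irf7* and *Xaf1*, the last by its other probe, and none was lower, against 5.32% higher and 2.01% lower of 12303 genes. There the lone WT mouse is assumed to vary like the KO mice. Both settings set the KO mice against WT mouse 3 alone, so they give the same difference for a probe and are not separate checks. All KO mice lay above WT mouse 3 in the 9 genes. Their positive difference in both settings was therefore fixed in advance. The median over the members was 0.29 in both.

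**Figure D1:**
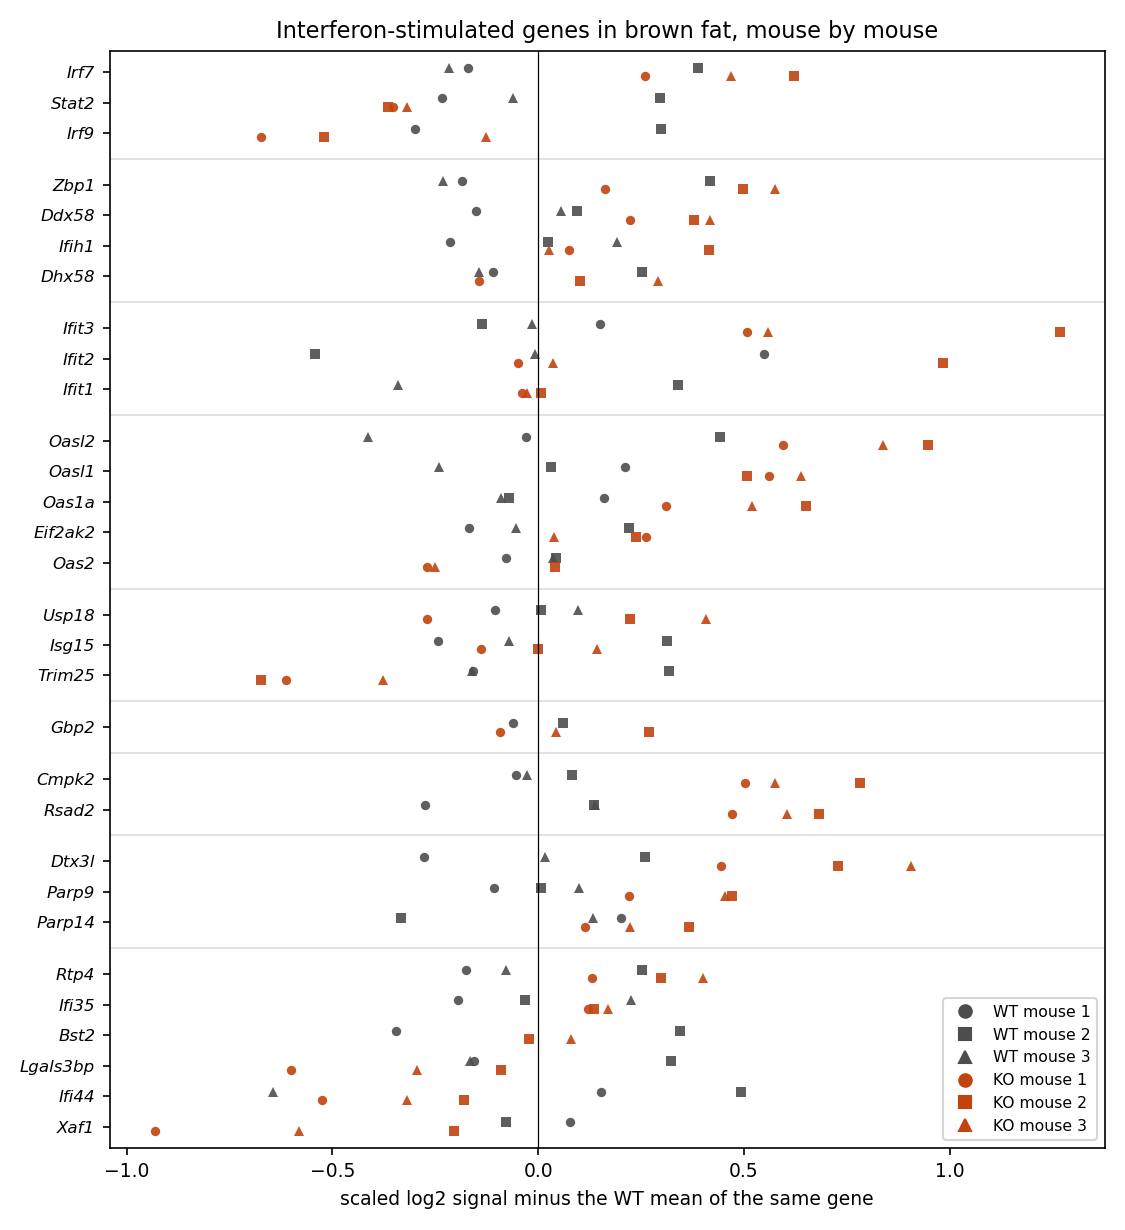
Scaled log2 signal of the 30 tested interferon-stimulated genes in each mouse, minus the mean of the WT mice for the same gene (horizontal axis, log2 units). Grey symbols are WT mice, orange symbols KO mice, the symbol shape gives the mouse, missing symbols are spots marked as outliers, and lines separate groups of genes by role in the order of the text. For 9 genes, such as *Cmpk2* and *Oasl2*, all orange symbols lie to the right of all grey symbols.

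Of the genes with 3 values in each genotype, 25 were members. All KO mice lay above all WT mice in 9 of these 25 (36%), against 14.2% of 11577 genes, and these were the 9 genes named above. All KO mice lay below all WT mice in 2 of 25 (8%), *Trim25* and *Stat2*, against 14.7%. In the remaining 14 genes the genotypes overlapped. These shares, too, are of genes chosen with earlier results known.

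Several lists of leukocyte markers, but not all, were also higher in KO mice. The list means by mouse keep spots marked as outliers, whereas the tests of single markers leave them out. Over all genes, 10.0% were higher and 8.81% lower at the unadjusted threshold. The mean scaled log2 signal of 5 markers of all leukocytes, each above background on every array, was -1.47, -1.21 and -1.14 in WT and -0.85, -0.52 and -0.80 in KO mice, without overlap. All 5 had higher means in KO mice and 3 passed the unadjusted threshold, *Ptprc* by 0.53, *Cd52* by 0.88 and *Coro1a* by 0.58. For natural killer cell markers the ranges were -4.53 to -3.81 in WT and -3.45 to -3.18 in KO mice, also without overlap, and 3 of 6 tested markers passed the unadjusted threshold, *Prf1*, *Gzmb* and *Ncr1*. T cell markers ranged from -4.41 to -3.58 and from -3.72 to -3.49, with 2 of 7 higher, and macrophage markers from 0.94 to 1.19 and from 1.13 to 1.54, with 2 of 11 higher, *Cx3cr1* and *C1qb*, and lower means for *Itgam* (-0.35) and *Csf1r* (-0.01). Neutrophil markers had a mean of -1.84 in both genotypes, with *Retnlg* higher by 0.71 and *S100a9* at -0.50. Of the B cell markers, *Ms4a1* and *Blk* were above background on no array, whereas *Cd79b* (0.36) and *Pax5* (0.25) had higher means in KO mice with overlap. The 10 brown adipocyte markers ranged from 3.54 to 3.85 in WT and from 3.05 to 3.63 in KO mice, and of 4 that were tested 2 were lower, *Cpt1b* by -0.58 and *Cox7a1* by -0.78, while *Prdm16* (0.55) and *Elovl3* (0.095) had higher means with overlap. Skeletal muscle markers set WT mouse 3 apart, with 2.58, 1.70 and -4.94 in WT and 0.22, 3.57 and 1.70 in KO mice. Without WT mouse 3, 7 of 29 members were higher and 2 lower, against 8.34% higher and 6.66% lower of all genes. WT mouse 3 is also the only WT mouse in the second slide row, on which both slide row settings rest. The part of the leukocyte markers in the result on the interferon-stimulated genes was not tested. In whole tissue, more cells of a type and more RNA per cell cannot be told apart.

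**Figure D2:**
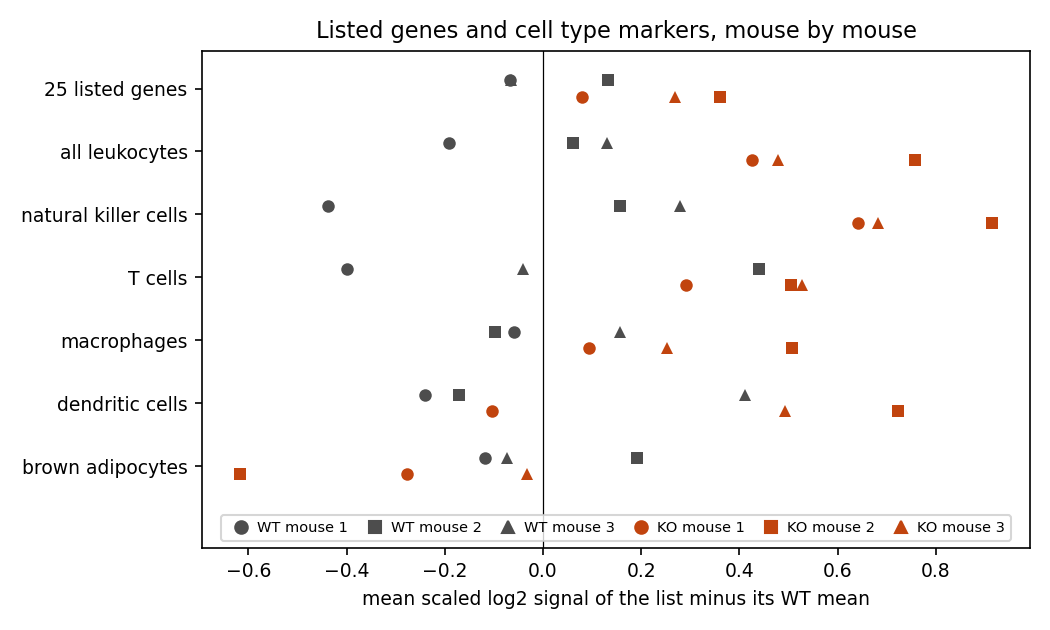
Mean scaled log2 signal of the 25 interferon-stimulated genes with a value in every mouse, and of 6 lists of cell type markers, in each mouse minus the WT mean of the list (horizontal axis, log2 units). Grey symbols are WT mice and orange symbols KO mice. Marked spots are kept in the marker lists and left out for the 25 genes. For the markers of all leukocytes and of natural killer cells all KO mice lie to the right of all WT mice, while for the interferon-stimulated genes KO mouse 1 (0.08) lies to the left of WT mouse 2 (0.13).

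Signalling and transcription came first in order of role. *Irf7*, the factor that amplifies interferon production, read -1.20, -0.64 and -1.25 in WT and -0.77, -0.40 and -0.56 in KO mice. KO mouse 1 lay below WT mouse 2, and the difference of 0.45 ± 0.21 (SE) did not pass the threshold (adjusted p = 0.292 from limma). A second, dim *Irf7* probe was higher in all KO mice, by 1.25, but it was well above background on only 1 of 3 WT and 2 of 3 KO arrays.

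*Stat2* and *Irf9* encode partners in the complex that binds the response element. *Stat2* read 0.32, 0.85 and 0.49 in WT and 0.20, 0.19 and 0.23 in KO mice. The KO mice lay close together below all WT mice, and the difference of -0.35 ± 0.17 (SE) did not pass the threshold (adjusted p = 0.320 from limma). The second *Stat2* probe moved the other way, by 0.47, with overlap between the genotypes. *Irf9* read 0.68 and 1.28 in WT mice 1 and 2, with the spot of WT mouse 3 marked, and 0.31, 0.46 and 0.86 in KO mice. The genotypes overlapped, and the difference was -0.44 ± 0.26 (SE; adjusted p = 0.405 from limma), with -0.17 on the other probe.

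The cytosolic RNA sensors had higher means in KO mice in 4 of 4 genes, 1 of which passed the threshold. Over all genes, 47.1% had higher means. *Ddx58*, which encodes the sensor RIG-I, read 0.18, 0.43 and 0.39 in WT and 0.56, 0.71 and 0.75 in KO mice. The genotypes did not overlap, with a difference of 0.34 ± 0.14 (SE; adjusted p = 0.255 from limma), the closest to the threshold among the genes that passed it. Both other testable probes of *Ddx58* were also higher in KO mice, by 0.46 with overlap and by 1.08 without. *Ifih1*, the sensor MDA5, differed by 0.17 and *Dhx58*, the regulatory helicase LGP2, by 0.08, with overlap in both. *Zbp1*, which senses Z-form nucleic acids, differed by 0.41 with overlap on its brighter probe and by 0.995 without overlap on its dimmer one.

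The IFIT proteins bind foreign RNA ends, and the 3 genes lie within one stretch of chromosome 19. *Ifit3* (chr19:34583119-34588982) read -2.47, -2.76 and -2.64 in WT and -2.11, -1.35 and -2.06 in KO mice. Every KO mouse lay above every WT mouse, KO mouse 2 far above the other KO mice, and the difference was 0.78 ± 0.23 (SE; adjusted p = 0.157 from limma). *Ifit2*, 6.58 kb away, differed by 0.32, and *Ifit1* (chr19:34640889-34650009) by -0.02, with a 95% interval of -0.59 to 0.55. In both the genotypes overlapped. *Ifit3* and *Ifit1* each hold 2 matches to the response element core in the window searched, and *Ifit2* holds none.

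The 2′-5′ oligoadenylate synthetases make the messenger that activates RNase L, and their relatives Oasl1 and Oasl2 carry ubiquitin-like domains. Of 4 tested genes of the family, 3 were higher in KO mice, beside 10.0% of all genes, in a list chosen with earlier results known. *Oasl2* (chr5:114896926-114912245) read -2.80, -2.33 and -3.19 in WT and -2.18, -1.83 and -1.94 in KO mice, a difference of 0.79 ± 0.24 (SE; adjusted p = 0.158 from limma). The genotypes did not overlap, WT mouse 2 coming nearest to the KO mice.

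*Oasl1* (chr5:114923143-114937911), 10.9 kb from *Oasl2*, read -3.60, -3.78 and -4.05 in WT and -3.25, -3.30 and -3.17 in KO mice. The genotypes did not overlap and the difference was 0.57 ± 0.16 (SE; adjusted p = 0.143 from limma), whereas the other *Oasl1* probe differed by 0.18 with overlap. *Oas1a* read -1.99, -2.22 and -2.24 in WT and -1.84, -1.50 and -1.63 in KO mice, a difference of 0.49 ± 0.15 (SE; adjusted p = 0.169 from limma). Every KO mouse exceeded every WT mouse, KO mouse 1 by the smallest margin. *Oas2* differed by -0.16 with overlap. *Eif2ak2*, the kinase PKR that halts translation on sensing double-stranded RNA, differed by 0.18 with overlap.

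The Isg15 pathway attaches Isg15 to other proteins. The direction of *Isg15* itself changed with the scaling, around 0 in each. It read -0.30, 0.26 and -0.13 in WT and -0.19, -0.06 and 0.09 in KO mice. The KO mice lay within the range of the WT mice, and the difference of 0.00 ± 0.18 (SE; adjusted p = 0.997 from limma) had a 95% interval of -0.43 to 0.43. *Usp18*, which removes Isg15 and damps the receptor, differed by 0.12 with overlap.

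*Trim25*, an E3 ligase that acts on RIG-I and can conjugate Isg15, was the gene that was lower. It read 1.30, 1.77 and 1.30 in WT and 0.84, 0.78 and 1.08 in KO mice. All KO mice lay below all WT mice, with a difference of -0.55 ± 0.18 (SE; adjusted p = 0.190 from limma). Its second probe differed by -0.08 with overlap.

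*Rsad2* and *Cmpk2* act together in nucleotide metabolism: Cmpk2 phosphorylates pyrimidine monophosphates and Rsad2, viperin, makes a chain-terminating nucleotide. The genes are neighbours, 12.7 kb apart, at chr12:26442743-26456452 and chr12:26469117-26479837. *Cmpk2* had the smallest p among the members. It read -0.92, -0.78 and -0.89 in WT and -0.36, -0.08 and -0.29 in KO mice, and the difference of 0.62 ± 0.14 (SE) was more than 4 times its standard error (adjusted p = 0.0996 from limma). The gap between the genotypes was wider than the range within either one. *Rsad2* read 0.73, 1.14 and 1.14 in WT and 1.48, 1.69 and 1.61 in KO mice, a difference of 0.59 ± 0.16 (SE; adjusted p = 0.145 from limma). Its second probe was also higher in every KO mouse, by 1.09.

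*Parp9* and *Dtx3l* encode the partners of an ADP-ribosylating ubiquitin ligase complex, and the genes overlap at their starts on chromosome 16. *Dtx3l* read -0.80, -0.26 and -0.51 in WT and -0.08, 0.21 and 0.38 in KO mice, a difference of 0.69 ± 0.20 (SE; adjusted p = 0.146 from limma). *Parp9* read 0.18, 0.30 and 0.39 in WT and 0.51, 0.76 and 0.74 in KO mice, a difference of 0.38 ± 0.14 (SE; adjusted p = 0.221 from limma). In both genes all KO mice lay above all WT mice. *Parp14*, a mono-ADP-ribosyltransferase 55 kb from *Dtx3l*, differed by 0.23 with overlap. Of the 9 genes that were higher, 6 formed 3 pairs of direct neighbours, *Cmpk2* with *Rsad2*, *Dtx3l* with *Parp9* and *Oasl1* with *Oasl2*. Other listed genes are direct neighbours too. Only 1 gene was higher in the pairs *Parp14* with *Dtx3l* and *Ifit2* with *Ifit3*. In the pair *Oas2* with *Oas3* it was 0, *Oas3* not being tested. The list holds gene families that lie together, and the share of neighbours over all genes was not counted.

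The remaining effectors did not pass the threshold. *Gbp2*, a guanylate-binding GTPase, differed by 0.07, *Bst2*, tetherin, by 0.03, *Rtp4* by 0.28 and *Ifi35* by 0.14. *Gbp3*, with marked spots kept and no test, read -0.23, 0.12 and -0.48 in WT and -0.29, 0.14 and -0.12 in KO mice. *Ifi44* and *Lgals3bp* had lower means in KO mice, by -0.34 and -0.33. In all of these the genotypes overlapped on the probe that stood for the gene, and the 95% intervals reached from -1.04 to 0.75 at the extremes. A second *Ifi35* probe, with 1 marked spot, was higher in KO mice by 0.30 without overlap.

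**Figure D3:**
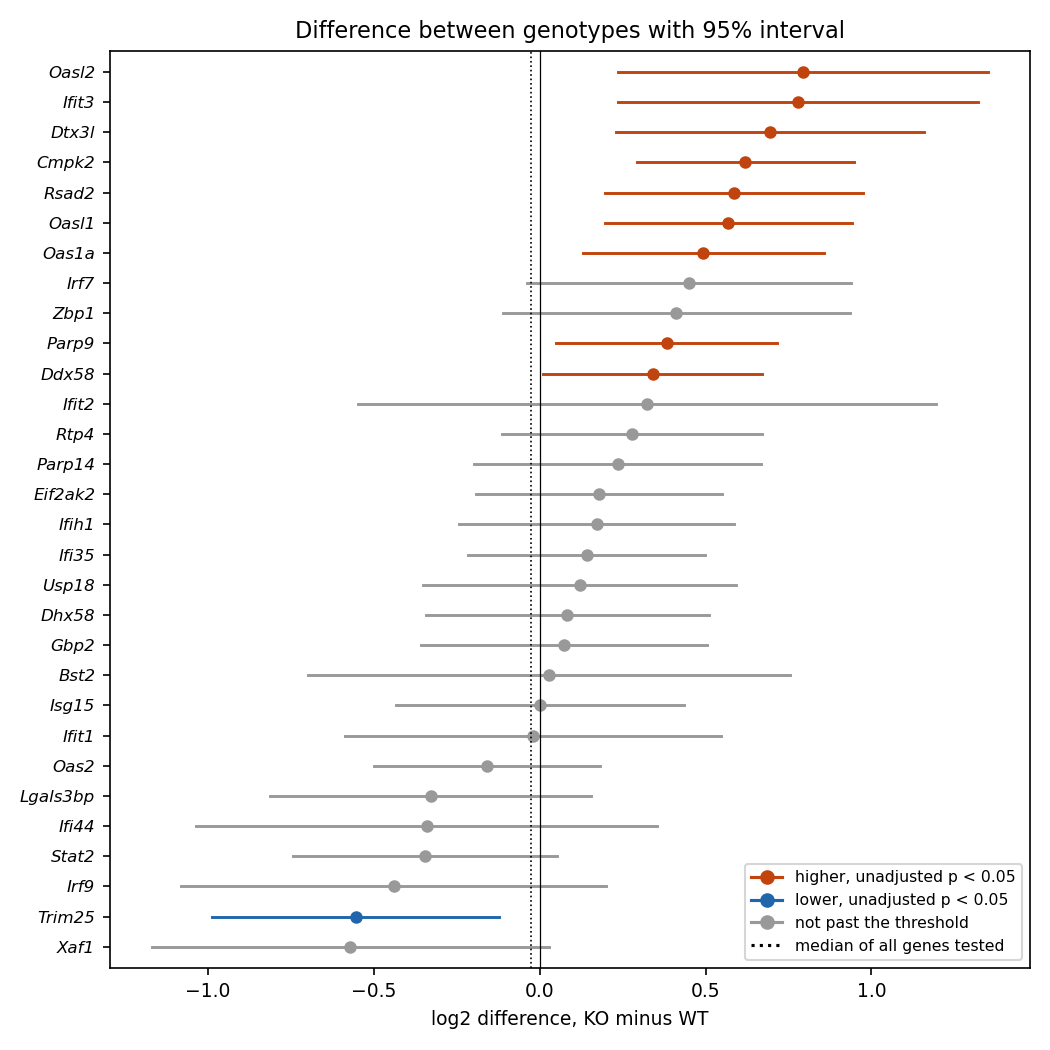
Log2 difference between KO and WT mice for the 30 tested interferon-stimulated genes (horizontal axis, KO minus WT), with the 95% interval from limma, sorted by size. Orange marks genes higher and blue the gene lower in KO mice at an unadjusted p under 0.05, grey marks the others, and the dotted line is the median of all genes tested (-0.03). The 9 orange intervals lie above 0 and the interval of *Trim25* below it.

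*Xaf1*, a pro-apoptotic factor induced by interferon, gave opposite results with its 2 probes, although both carry the same RefSeq accession. The probe that was brighter on average over the arrays (A_55_P1966833) stood for the gene. It read 0.34 and 0.18 in WT mice 1 and 2, with WT mouse 3 marked. In KO mice it read -0.67, 0.06 and -0.32, a difference of -0.57 ± 0.24 (SE; adjusted p = 0.281 from limma). The other probe (A_55_P1966838) read -4.55, -4.58 and -4.51 in WT and 0.96, 1.16 and 1.0 in KO mice, where it was the brighter of the 2. In unscaled intensity these were 84.9, 59.9 and 70.1 against 4935, 5896 and 3198, well above background and unmarked on all 6 arrays. The difference of 5.59 ± 0.14 (SE) passed the adjusted threshold among probes (adjusted p = 4.35e-05 from limma), which 0.109% of 31240 tested probes did, and it was the second largest of them. It was 5.52 after quantile normalization, 5.52 in the authors' processed values, which do not list A_55_P1966833, and 4.56 with normexp background correction.

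*Xaf1* (chr11:72301461-72313733) lies 3.15 Mb from *Mir22hg* on chromosome 11. Of 24 other tested genes within 1 Mb of *Xaf1*, 3 were higher (12.5%) and 6 lower (25%) in KO mice at the unadjusted threshold. The shares over all genes were 10.0% and 8.81%. The differences of these neighbours reached up to 1.47. There were 5 members on chromosome 11 in all, *Xaf1*, *Trim25*, *Dhx58*, *Ifi35* and *Lgals3bp*.

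**Figure D4:**
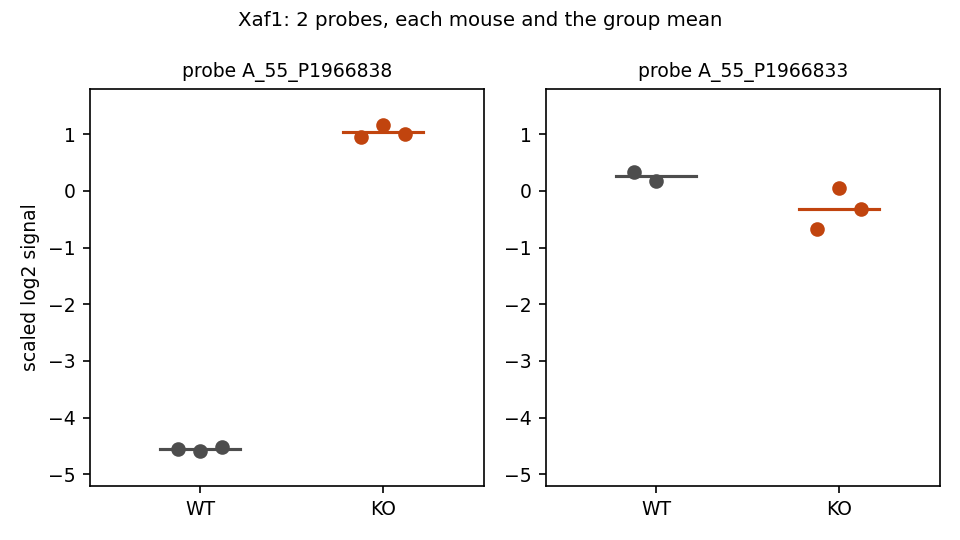
Scaled log2 signal (vertical axis) of the 2 *Xaf1* probes in each WT mouse (grey) and KO mouse (orange), with lines at the group means. On the left probe the KO mice lie 5.59 above the WT mice, and on the right probe, where WT mouse 3 was marked and is not drawn, they lie 0.57 below.

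Counting every probe, 11 members had more than 1 testable probe, and in 9 of them all probes of the gene moved in the same direction. The exceptions were *Xaf1* and *Stat2*.

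The spread between mice was as follows. Over the 25 members with all values, the median SD between mice was 0.23 in WT and 0.17 in KO mice, beside 0.20 and 0.22 over all genes with all values. The SD was larger among WT mice in 17 of 25 members (68%), against 44.2% of all such genes. The WT mice lay in both rows of the slide and all KO mice in the second. The SD of the WT mice therefore also holds any difference between rows. The largest SD was 0.58 in WT mice (*Ifi44*) and 0.57 in KO mice (*Ifit2*).

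Mice of one genotype were not alike across the members. KO mouse 1 was the lowest KO mouse for 20 of 25 members (80%), against 37.6% of all genes, and the highest for 1. WT mouse 2 was the highest WT mouse for 15 of 25 (60%), against 51.8%. The mean over the 25 members, relative to the WT mean, was -0.07, 0.13 and -0.07 in WT and 0.08, 0.36 and 0.27 in KO mice, with an SD of 0.11 and 0.14 (n = 3 each). KO mouse 1 thus lay below WT mouse 2, and the difference of 0.24 between the group means compares with a pooled SD of 0.13 between mice. Over all genes the same means were between -0.06 and 0.10. The array of KO mouse 1 had the lowest share of spots above background, 55.8% against 62.3 to 66.5% on the others, and 15.1% of its spots were marked, as were 17.1% of those of WT mouse 3. The part of these array properties in the order of the mice was not tested.

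Upstream of the members, no ligand or receptor gene was higher in KO mice at the threshold, beside 10.0% of all genes. These lists are short, so the absence of calls cannot set them apart from all genes. Of 21 interferon genes listed, 18 had a probe and 6 were tested, with none past the unadjusted threshold and differences from -0.33 to 0.51. The probes of *Ifna5*, *Ifna15*, *Ifnab* and *Ifng* were dim, above background on 4 or 5 arrays. Of 11 receptor and JAK-STAT genes, 9 were tested and 1 was lower (11.1%, beside 8.81% of all genes). This was *Stat3*, by -0.40 (adjusted p = 0.263 from limma), a call made in only 5 of 20 settings. The receptor subunits *Ifnar1* and *Ifnar2* differed by -0.18 and -0.22, *Ifngr1* and *Ifngr2* of the interferon gamma receptor by -0.02 and 0.22, and *Tyk2* by 0.24, all with overlap between the genotypes. *Jak1* was not tested.

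Among other IRF factors, 2 of 6 tested were higher in KO mice (33.3%, beside 10.0% of all genes). *Irf8*, which directs myeloid development, read -1.52, -1.36 and -1.43 in WT and -0.89, -0.66 and -0.85 in KO mice, a difference of 0.64 without overlap (adjusted p = 0.0935 from limma). *Irf5*, which drives inflammatory genes in myeloid cells, differed by 0.72 on 2 KO values, KO mouse 1 being marked. With marked spots kept, another probe of *Irf5* became the brightest and its difference was -0.73. *Irf1* and *Irf3* differed by -0.07 and -0.19 with overlap.

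Of 24 genes of nucleic acid sensing and its adaptors, 4 were higher (16.7%) and none was lower, beside 10.0% and 8.81% of all genes. They were *Tlr7*, an endosomal sensor of single-stranded RNA (0.62), *Adar*, which edits double-stranded RNA (0.70), *Rnaseh2a*, a subunit of RNase H2 (0.52), and *Ikbke*, a kinase that activates IRF factors (0.68). The call of *Ikbke* rests on overlapping genotypes and a probe above background on 4 arrays, and was made in only 6 of 18 settings of the processing. The adaptor *Mavs*, which passes on the signal of RIG-I and MDA5, differed by -0.10 with overlap on 2 values per genotype. Of 10 tested negative regulators, 2 were higher (20%), *Trim24* by 0.69 and the phosphatase *Ptpn6* by 0.53.

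Of 49 other tested interferon-stimulated genes, 10 were higher (20.4%) and none was lower, beside 10.0% and 8.81% of all genes. Their median difference was 0.12. *Fcgr1*, the high-affinity IgG receptor of macrophages and monocytes, read -2.03, -2.07 and -1.99 in WT and -0.98, -0.82 and -1.16 in KO mice. All KO mice lay well above all WT mice, and the difference of 1.04 (adjusted p = 0.0508 from limma) was the closest to the adjusted threshold in any of these lists. *Tor3a* (0.72), *Rbm43* (0.67), *Trim34a* (0.79) and *Ifit3b* (0.54), a close copy of *Ifit3* whose RNA may bind the same probes, followed.

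Interferon gamma has its own set of targets, which are often shared with type I interferons. Of 24 tested GTPases and antigen presentation genes, none was higher and 2 were lower (8.33%), close to the 8.81% of all genes. They were *Gbp6*, by -1.14 on 2 values per genotype, and *H2-K1*, a class I molecule, by -0.53. Of 6 tested interferon-induced chemokines, all had higher means in KO mice, against 47.1% of all genes. Of these, 1 passed the threshold (16.7%), *Ccl12*, a ligand that attracts monocytes, by 1.60. Over all 134 tested genes of these pathway lists, 19 were higher (14.2%) and 3 lower (2.24%) at the unadjusted threshold, beside 10.0% and 8.81% of all genes, with none past the adjusted one. These lists, like the members, were put together with earlier results of these arrays known.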

How the data were processed

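Single-colour Agilent arrays of BAT from 3 WT and 3 KO mice were analysed, 1 mouse per array. Per the file headers, the authors deposited scanner intensity values from Agilent Feature Extraction (11.5.1.1 in the headers, 10.7 in the submitters' processing notes), background-subtracted and without scaling between arrays. The deposited table of log2 values from the authors (27497 probes, processing not stated in the sources used here) served as an alternative.

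Non-control spot intensity was scaled to the array's 75th percentile before taking log2. Spots that the software marked as non-uniform or as outliers of their replicate spots were not used in the tests. The list means of cell type markers by mouse, and the values given for *Gbp3*, keep them. Probes well above background on at least 3 of 6 arrays, with at least 2 values per genotype, were tested (31240 of 56605), and 59.7% of all probes were matched to a gene through RefSeq accessions (GRCm38.p6). The fit over all genes used limma 3.58.1 (lmFit, eBayes; R 4.3.3), unpaired. Arrays carry no depth, so that their number, 3 per genotype, limits the precision. The steps were tested on simulated data. Named were the members with an unadjusted p under 0.05, *Isg15*, *Irf7*, *Irf9* and *Stat2* with full values, all other members by difference, and fixed genes and up to 5 genes with the smallest p under 0.05 of each pathway list. The values of 1 gene that this rule names are not reported here. *Xaf1* was described further after its values were seen. The 34 members, the pathway lists and the marker lists were chosen with earlier results of these data known. Alternatives were other scalings, background corrections and filters, SAM, the methods' t-test, the slide row as a block, and leaving out each mouse. Counting each probe on its own, and quantile normalization with the marked spots kept, were added after the data were seen. Motifs were counted with Python 3.11.15.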

Additional observations from a re-analysis of the deposited data

How the results depend on the processing

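Among the 30 members, 9 higher and 1 lower at an unadjusted p under 0.05 was the count as reported. The number higher was 10 with quantile normalization, 9 when arrays were scaled to their median detected probe, 8 with normexp, 11 in the authors' processed values, 7 without a filter on dim probes, 9 with a filter of all 6 arrays, 9 with marked spots kept, 11 with the mean of a gene's probes, 7 with SAM and 9 with the methods' t-test. It was 3 with the slide row as a block and 5 within the second slide row, and 7 to 12 without each mouse in turn. The number lower was 2 with quantile normalization, in the authors' values, with the filter of all arrays and with marked spots kept, 3 with quantile normalization and marked spots kept, 0 with the mean of probes and with either slide row setting, and 0 to 2 without each mouse in turn (0 without KO mouse 1). The difference of all 9 genes stayed above 0 under every alternative run. Every KO mouse lay above every WT mouse in these genes. On the same probe, leaving out a mouse or using the slide row could therefore not turn the sign. The other alternatives process the same 6 arrays again. All 9 were called under quantile normalization and 6 of them under normexp. Dropping *Ddx58* and *Parp9* from the calls was common, since they passed in 10 and 11 of 20 settings, while *Cmpk2* and *Oasl2* passed in all 20. Over all genes, 893 were higher with normexp, 777 were higher and 298 lower with the slide row as a block, and 654 and 247 within the second row. Leaving out each mouse gave 1067 to 1407 higher and 716 to 1375 lower, with the lowest count of lower genes without WT mouse 2.

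Of the genes whose difference changed sign, apart from *Xaf1* and *Irf5*, none passed the threshold as reported or after the change. *Isg15* was -0.0015 with quantile normalization (with and without marked spots), -0.0068 with median scaling, -0.038 with normexp and -0.12 to 0.16 without each mouse in turn. *Dhx58* was -0.013 with quantile normalization (with and without marked spots), -0.0084 in the authors' values, and -0.022 to 0.21 without each mouse. *Usp18* was -0.0052 with normexp and -0.023 without KO mouse 3. *Ifngr1* was 0.23 with quantile normalization (0.029 with marked spots kept), 0.094 with normexp, 0.066 with either slide row setting and -0.062 to 0.046 without each mouse. *Mavs* was 0.031 with quantile normalization. With marked spots kept, *Bst2* was -0.015 and *Irf5* -0.73 (-0.66 after quantile normalization), and *Ifnar1* was 0.18 with quantile normalization and marked spots kept. With the mean of probes *Stat2* was 0.062, *Irf3* 0.032, *Ifnar1* 0.076 and *Xaf1* 3.30. With either slide row setting *Ifi35* was -0.083, *Ifi44* 0.30, *Ifih1* -0.019, *Ifit1* 0.32 and *Irf1* 0.0020. Without each mouse in turn, *Irf1* ranged from -0.11 to 0.011, *Gbp2* from -0.025 to 0.16, *Ifit2* from -0.0066 to 0.60 and *Xaf1*, which then changed probe without WT mouse 1 or 2, from -0.76 to 5.59. *Xaf1* was 5.52 in the authors' values and 5.55 within the second row, and it passed the adjusted threshold in these 2 settings and without WT mouse 1 or 2. Taken on its own, the second *Stat2* probe was 0.47. The cause was not tested, except that the change of probe follows from how the brightest testable probe is chosen. No paired analysis was possible because the labels give the mice of the 2 genotypes no shared numbers. With 3 arrays per genotype and dim probes such as that of *Oas3*, differences smaller than the intervals given were not detectable.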
